A study of Mus musculus with 3 samples.

Results

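Pericytes and vascular smooth muscle cells were examined in a single-cell RNA-sequencing series on regenerating mouse muscle. The cells were chosen by their own transcripts, as cells with at least 3 unique molecular identifiers (UMIs, counts of single captured transcripts) of Rgs5, Notch3 and Myh11 together and with no UMI of Ptprc, Pecam1, Pdgfra or Cdh15, which mark leukocytes, endothelium, fibro/adipogenic progenitors (FAPs) and satellite cells. Quality limits of 500 genes or more and less than 10% mitochondrial UMIs left 35247 cells, of which 304 met this rule and are called mural cells here. They were split at 3 Myh11 UMIs into 79 Myh11-high and 225 Myh11-low cells.

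The cells came from dissociated tibialis anterior muscles of C57/BL6J mice, taken 4 days after injury with barium chloride. All muscles were injured, so the series holds no uninjured control. Young mice injected with PBS, old mice injected with PBS and old mice injected with rMETRNL, the recombinant form of the secreted protein meteorin-like, made up the groups, and the labels give age only as young or old. Each group was 1 library made from pooled muscles, so no spread between mice was available and no difference between groups could be tested. The age contrast (old PBS against young PBS) and the treatment contrast (old rMETRNL against old PBS) share the old PBS library and are therefore not independent. Intervals below are exact 95% intervals (Clopper-Pearson for shares, Poisson for levels, conditional on the summed count for ratios) and cover counting error only. Unless a library is named, values given in threes are those of the young PBS, the old PBS and the old rMETRNL library, always in that order.

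Mural cells wrap the endothelial tube. Vascular smooth muscle cells form the contractile coat of arterioles and venules with smooth muscle actin and myosin, while pericytes sit on capillaries within the basement membrane, carry the PDGF receptor beta and the Notch3 receptor, and express few contractile filaments. ATP-sensitive potassium channels, nitric oxide-stimulated guanylate cyclase and G protein signalling regulators set vessel tone in these cells, and they deposit basement membrane and, after injury, interstitial matrix. Rgs5 encodes a regulator of G protein signalling that is widely used as a pericyte marker, Myh11 encodes smooth muscle myosin heavy chain, and Acta2 encodes smooth muscle alpha-actin. In the GRCm38 annotation Rgs5 lies on the plus strand at chr1:169655501-169695813, Notch3 on the minus strand at chr17:32120820-32166852, Myh11 on the minus strand at chr16:14194535-14291372 and Acta2 on the minus strand at chr19:34241090-34255590.

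The young PBS library held 99 mural cells among 11403 cells, the old PBS library 111 among 11058 and the old rMETRNL library 94 among 12786. They were 0.868% (95% interval 0.706 to 1.06), 1.0% (0.826 to 1.21) and 0.735% (0.594 to 0.899) of all cells. The ratio of shares was 1.16 (0.874 to 1.53) for age, which includes 1, and 0.732 (0.550 to 0.973) for treatment, which lies below 1. The treatment interval reached 1 with a stricter cell filter (0.677, 0.447 to 1.02) and when doublet calls were removed (0.750, 0.558 to 1.005). These libraries held 218059089, 179295668 and 228966697 UMIs in all, of which the mural cells held 1197133, 744906 and 771568. The median mural cell had 8496, 4266 and 5563.5 UMIs, and the cells ranged from 759 to 79881 UMIs. No barcode of a mural cell occurred in another library, although 58 to 80 barcodes were shared by each pair of libraries as a whole.

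The rule removed most cells that carried the mural transcripts. Before the negative markers were applied, 541, 499 and 530 cells had at least 3 UMIs of the chosen genes, and 442, 388 and 436 of them had a UMI of Ptprc, Pecam1, Pdgfra or Cdh15. Of the cells free of those markers, 11, 8 and 5 stood just inside the threshold with 3 UMIs and 15, 18 and 13 just outside it with 2. The Myh11 cut had 5, 3 and 3 cells with exactly 3 UMIs and 11, 9 and 11 with 2, so that the Myh11 classes are 2 ranges of a graded count. By itself, Rgs5 reached 3 UMIs in 78, 94 and 73 mural cells and Notch3 in 66, 52 and 48.

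The mural label did not hold for all of the cells. In 42 cells (21, 10 and 11 per library) the summed UMIs of 12 fibroblast markers exceeded those of 13 mural markers, and all 42 were Myh11-low. No Rgs5 UMI was found in 17 of the 21, 8 of the 10 and 11 of the 11, and most had passed through Notch3, with at least 3 UMIs of it in 18, 8 and 10. They carried decorin (Dcn), a fibroblast proteoglycan, at 2036, 2709 and 2906 CPM (UMI counts divided by the UMI total of the summed cells, on the usual CPM scale), against 96.5, 104 and 162 CPM in the other mural cells of the same libraries. Thbs4, a tendon-associated matrix protein, was at 799, 754 and 845 CPM in them and at 20.2, 23.8 and 37.6 CPM in the others. Rgs5 was at 59.7, 38.3 and 0 CPM in them against 7427, 7648 and 7804 CPM in the others. Pdgfrb was present in both, at 396, 288 and 321 CPM and at 533, 508 and 484 CPM.

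These fibroblast-led cells are called by that rule and not by a cell type. They were deep, with median counts of 25810, 16464 and 21214 UMIs against 6606.5, 3681 and 4025 in the others, and so supplied 42.0%, 21% and 31.1% of the mural UMIs. Their share therefore moved with each contrast between libraries and with the Myh11 split. List counts and leading genes are given below with and without them, a choice made after the data had been seen, and where neither is named the value is for all mural cells. The other 262 mural cells were 78, 101 and 83 in the 3 libraries, and 183 of them were Myh11-low.

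The label was also doubtful for some of those 262 cells, first for 2 Myh11-low cells with few mural transcripts. An old PBS cell of 79881 UMIs, the deepest mural cell of all, had mural markers at 663 CPM and pericyte list genes at 37.6 CPM, and held 10.7% of that library's mural UMIs. An old rMETRNL cell of 22873 UMIs had them at 1049 and 262 CPM, while the next lowest of the 262 had mural markers at 1931 CPM. Both remain in the values given for the 262 cells, and values without them as well are given where they move a result. That choice too was made after the data had been seen. A further Myh11-low cell of old PBS, of 10890 UMIs, had 16.8% of its UMIs in mature muscle fibre markers, contractile list genes at 35721 CPM and pericyte list genes at 551 CPM. In all 3 old PBS cells, each Myh11-low, had over 1% of their UMIs in fibre markers, and they too remain in the 262. Leaving them out of all mural cells gave 9 of 35 interstitial matrix genes lower for age and 5 of 34 higher for treatment, the counts found with them, and 4 of 26 contractile genes higher for age in place of 5.

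**Figure D1:**
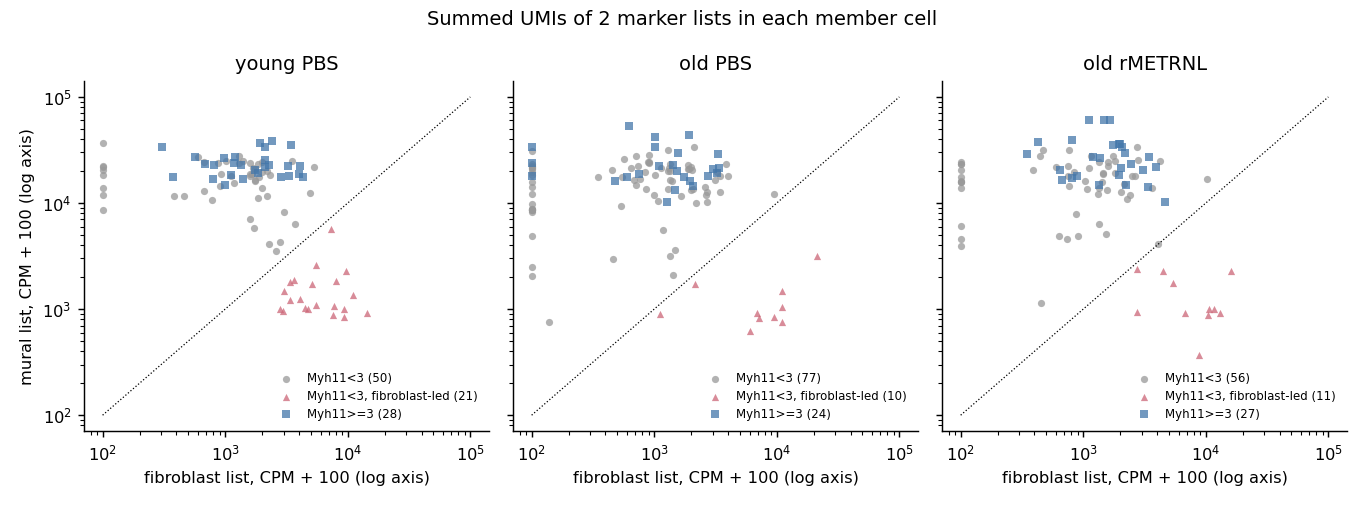
Mural against fibroblast marker levels in each of the 304 mural cells, in 1 panel per library, as CPM plus 100 on log axes, with Myh11-high, Myh11-low and fibroblast-led cells marked and a dotted line where the lists are equal. The 21, 10 and 11 fibroblast-led cells lie on the fibroblast side of the line and all other cells on it or on the mural side.

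Markers of other cell types were low but not absent. Macrophage markers summed to 395, 741 and 692 CPM in mural cells, with all 12 detected, and endothelial markers to 834, 1483 and 1292 CPM, with 11 of 12 detected and Pecam1 at 0 by the rule. Schwann cell markers summed to 198, 223 and 174 CPM, with Sox10 at 0 in every library, and myogenic markers to 58.5, 99.3 and 45.4 CPM, with Cdh15 at 0 by the rule. Mature muscle fibre markers summed to 41.8, 2987 and 122 CPM. A single old PBS cell of 10890 UMIs held 82.2% of that library's fibre marker UMIs. Tenocyte markers summed to 502, 255 and 420 CPM.

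Rgs5 stood far above its level in other cells and Acta2 less so, and since the cells were chosen by Rgs5 and such genes this is a description without a test. The comparators were 2846 FAPs with at least 3 Pdgfra UMIs, 1846 endothelial cells with at least 3 UMIs of Pecam1 and Cdh5 together, and 24043 immune cells with a Ptprc UMI. FAPs and endothelial cells had to lack the other negative markers and to have fewer than 3 UMIs of the mural genes. Rgs5 was at 4332, 6049 and 5375 CPM in mural cells, while its highest level in any comparator was 20.7 CPM. Rgs5 was seen in 79.8%, 86.5% and 79.8% of mural cells, with median counts of 8496, 4266 and 5563.5 UMIs, and in 2.68%, 4.96% and 3.57% of the deeper immune cells, with medians of 14477, 14937 and 14622 UMIs. Acta2 was seen in 78.8%, 51.4% and 58.5% of mural cells and in 11.3%, 10.6% and 9.55% of immune cells. It was also seen in 44.6%, 30.9% and 38.0% of FAPs, which had medians of 26292.5, 23141 and 25391 UMIs. By level, Acta2 was at 2329, 2007 and 3961 CPM in mural cells and at 154, 104 and 114 CPM in FAPs.

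The genes that separated mural cells most from all comparators were largely ones the rule had not used. Higd1b, a mitochondrial inner membrane protein gene that marks pericytes, led with 155, 141 and 153 CPM in the 3 libraries against at most 0.383 CPM elsewhere. Kcnj8, which encodes the pore of the vascular ATP-sensitive potassium channel, was at 178, 295 and 297 CPM against at most 1.03 CPM. Abcc9, its sulfonylurea receptor subunit, was at 302, 729 and 491 CPM against at most 1.77 CPM. The odorant receptor gene Olfr558 followed with 65.2, 59.1 and 102 CPM against at most 0.390 CPM. In the 262 cells that were not fibroblast-led, Higd1b was at 264, 177 and 222 CPM and Olfr558 at 112, 74.8 and 149 CPM.

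The same ranking held several calcium-handling and excitability genes. Phospholamban (Pln), which restrains the sarcoplasmic calcium pump, was at 25.1, 51.0 and 122 CPM against at most 0.286 CPM. Calsequestrin 2 (Casq2), a calcium store protein, was at 81.9, 110 and 98.5 CPM and the calcium-activated chloride channel gene Ano1 at 83.5, 98.0 and 104 CPM. Lmod1, Actg2, Kcnk3, Pcsk1, Dgkb, Rgs5 and Myh11 were also among the 15 leading genes. By contrast, Mcam, often used to sort mural cells, was at 271, 158 and 250 CPM in mural cells and at 224, 179 and 238 CPM in endothelial cells, and Pdgfrb was at 475, 462 and 433 CPM in mural cells and at 158, 167 and 126 CPM in FAPs.

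**Figure D2:**
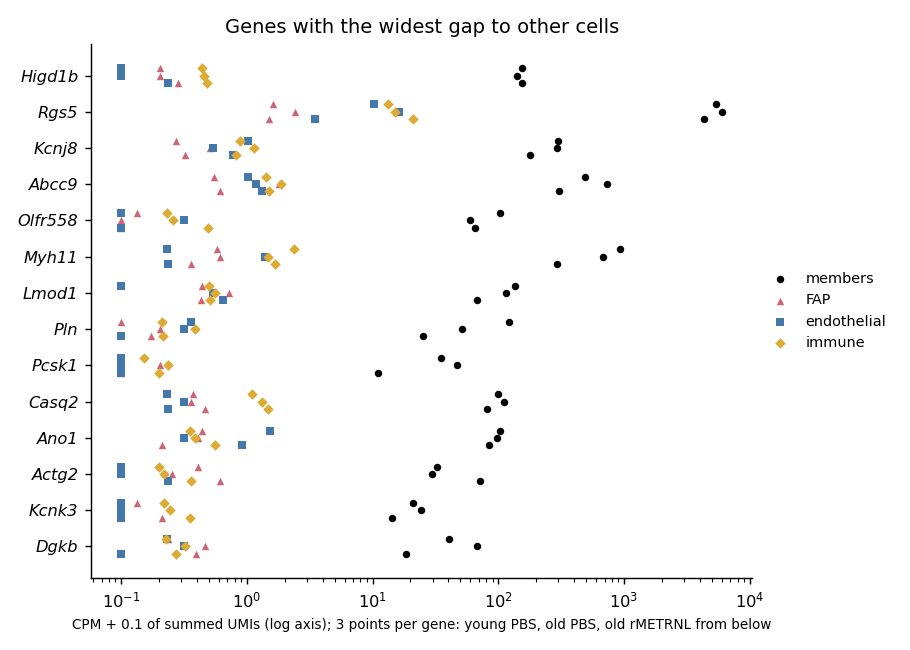
Levels of 14 of the 15 genes with the highest ratio of mural cells to any comparator, in CPM plus 0.1 on a log axis, in mural cells, FAPs, endothelial cells and immune cells, with 3 points per cell group, 1 for each library, young at the bottom and rMETRNL at the top. Rgs5 lies at 4332 CPM or more in mural cells and at or below 20.7 CPM in the other cells, and the mural points of the 14 genes lie to the right of the rest.

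Myh11-high cells made up 28 of 99, 24 of 111 and 27 of 94 mural cells. These shares of 28.3% (19.7 to 38.2), 21.6% (14.4 to 30.4) and 28.7% (19.9 to 39.0) gave ratios of 0.764 (0.424 to 1.37) for age and 1.33 (0.738 to 2.41) for treatment, and both intervals include 1. The cut depends on depth, and Myh11-high cells had medians of 9492, 9299.5 and 9233 UMIs against 6833, 3265 and 3703 in Myh11-low cells. After each cell was thinned to 2000 UMIs, which left out 12, 28 and 24 shallower cells, 10.3%, 12% and 20% of cells kept at least 3 Myh11 UMIs and 33.3%, 37.3% and 40% kept at least 1.

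The Myh11 classes were compared gene by gene on UMIs summed per class and library, so that the 3 libraries served as replicates of the class difference and library was a block in the fit. This is the only comparison here with replicates, and its p-values measure the spread of the class difference between 3 libraries of unlike age and treatment. By edgeR's quasi-likelihood test with Benjamini-Hochberg adjustment over 5511 genes, 376 genes (6.82%) were higher and 408 (7.40%) lower in Myh11-high cells at an adjusted p under 0.05. Myh11, Rgs5 and Notch3 had set the classes or the rule and were left out. With all cells that is 14.2% of genes in either direction. Without the 42 fibroblast-led cells the same fit called 74 of 4437 genes (1.67%) higher and 13 (0.293%) lower, 1.96% in all, of which 73 and 10 were among the genes called with all cells. Without the 2 cells low in mural markers as well, 84 of 4268 genes (1.97%) were higher and 36 (0.843%) lower, 2.81% in all.

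Contractile genes rose together. Of 27 tested genes of a 30-gene contractile list, 25 were higher in Myh11-high cells and none lower, against 6.82% and 7.40% over all genes, with a median log2 difference of 2.20 against -0.02 over all genes. When the fibroblast-led cells were left out, 19 of 26 were higher and the median was 1.58, against -0.03 over all genes. Casq2 and desmin (Des), an intermediate filament gene, did not pass.

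Acta2 was at 6303, 5739 and 9470 CPM in Myh11-high cells and at 841, 380 and 758 CPM in Myh11-low cells, or 1711, 514 and 1187 CPM in those that were not fibroblast-led. The classes did not overlap, and the log2 difference was 3.49 ± 0.52 (SD, n = 3 libraries; edgeR adjusted p = 3.33e-07), or 2.78 ± 0.82 without the fibroblast-led cells. Transgelin (Tagln), an actin-binding protein of smooth muscle, was at 4613, 3891 and 6459 CPM against 372, 301 and 445 CPM, or 717, 428 and 864 CPM without the fibroblast-led cells. Its difference was 3.73 ± 0.12 (edgeR adjusted p = 2.93e-08), again with no overlap, and 2.92 ± 0.25 without those cells.

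Calponin 1 (Cnn1), a brake on actomyosin and a late marker of smooth muscle, was nearly confined to Myh11-high cells. It was at 104, 177 and 363 CPM there, while Myh11-low cells held 0 UMIs of it in young PBS and old PBS and 3 UMIs in old rMETRNL. The ratio of the summed levels was 133 (44.6 to 649). Pln was at 88.9, 164 and 331 CPM against 1.15, 1.93 and 0 CPM, with a ratio of 180 (48.9 to 1497) that rests on 2 UMIs in Myh11-low cells. Enteric gamma-actin (Actg2) was at 258, 92.8 and 74.0 CPM against 2.30, 1.93 and 8.20 CPM, or 5.43, 2.76 and 16.1 CPM in the Myh11-low cells that were not fibroblast-led.

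Myosin regulators moved with the filaments. Myosin light chain kinase (Mylk), which switches contraction on, was at 656, 986 and 1421 CPM in Myh11-high cells and at 169, 177 and 164 CPM in Myh11-low cells, a log2 difference of 2.51 ± 0.58 (adjusted p = 2.67e-05). In Myh11-low cells that were not fibroblast-led Mylk was at 293, 243 and 266 CPM, and the difference was 1.86 ± 0.64. Ppp1r14a, an inhibitor of myosin phosphatase, differed by 2.11 ± 0.31. Leiomodin 1 (Lmod1), an actin nucleator, was at 187, 261 and 338 CPM against 23.0, 52.1 and 16.4 CPM. The broadly expressed light chain Myl6 differed less, by 1.41 ± 0.45 (adjusted p = 0.000167), and the focal adhesion protein vinculin (Vcl) by 0.99 ± 0.09 (adjusted p = 0.00383). Vcl did not pass without the fibroblast-led cells, where its difference was 0.55 ± 0.28.

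The rule for naming genes by size of change added genes outside that list. Among the 12 genes with the largest rise were Kcnk3, a potassium leak channel (49.1, 75.2 and 45.8 CPM against 1.15, 1.93 and 6.15 CPM), and Kcnab1, a potassium channel beta subunit (67.5, 92.8 and 88.1 CPM against 10.3, 3.86 and 2.05 CPM). Rcan2, an inhibitor of calcineurin, was at 52.1, 239 and 201 CPM against 5.74, 19.3 and 10.2 CPM. Sorbs2, an adaptor of the actin cytoskeleton, was at 76.7, 296 and 413 CPM against 6.89, 19.3 and 8.20 CPM. Nrip2, Rgs7bp, Pi15 and Myom1 completed the set with Pln, Cnn1, Actg2 and Tagln. For all 12 the level was higher in Myh11-high cells in each of the 3 libraries.

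The promoters of the contractile genes are shown because serum response factor, a transcription factor known to drive smooth muscle genes, binds a motif called the CArG box. RefSeq promoter windows of 250 bases before to 50 bases after the start, on build GRCm38.p6, were available for 26 of the 30 contractile genes (30 windows) and 18 of 26 pericyte list genes (24 windows). A CArG box was found in 5 contractile windows (16.7%), of the genes Ldb3, Myl6, Myl9 and Vcl, in 0 pericyte windows and in 1.63% of all 32851 windows. The 2 windows of Ldb3 overlap and hold the same box, which is therefore counted 2 times among the 5. TGGGAA or its reverse complement, the core letters bound by the Notch effector Rbpj, was found in 30.0% of contractile windows, 37.5% of pericyte windows and 25.6% of all windows. Both motifs were searched on both strands, and a box that ends in TGG can overlap TGGGAA. A match is a description of sequence and not a bound site. The bases before the start are given 5′ to 3′ on the gene's strand, with CArG boxes in capitals.

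The window of Myl9, the smooth muscle regulatory light chain that was higher in Myh11-high cells by a log2 of 2.59 ± 0.46, held a box 161 bases before the start (plus strand, chr2:156775214-156775463).
Myl9: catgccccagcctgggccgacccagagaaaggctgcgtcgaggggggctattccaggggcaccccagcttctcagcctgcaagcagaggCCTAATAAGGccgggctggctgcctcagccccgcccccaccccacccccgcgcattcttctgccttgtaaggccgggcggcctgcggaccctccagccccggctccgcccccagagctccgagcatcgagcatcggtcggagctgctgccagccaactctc
That of Vcl held one 227 bases before the start (plus strand, chr14:20929148-20929397).
Vcl: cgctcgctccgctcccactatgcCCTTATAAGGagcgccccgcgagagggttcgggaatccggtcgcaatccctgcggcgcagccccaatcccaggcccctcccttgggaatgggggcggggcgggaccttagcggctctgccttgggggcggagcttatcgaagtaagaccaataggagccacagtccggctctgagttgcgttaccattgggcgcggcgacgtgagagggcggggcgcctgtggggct
One of the 2 windows of Myl6 held a box 50 bases before its start (minus strand, chr10:128493010-128493259).
Myl6: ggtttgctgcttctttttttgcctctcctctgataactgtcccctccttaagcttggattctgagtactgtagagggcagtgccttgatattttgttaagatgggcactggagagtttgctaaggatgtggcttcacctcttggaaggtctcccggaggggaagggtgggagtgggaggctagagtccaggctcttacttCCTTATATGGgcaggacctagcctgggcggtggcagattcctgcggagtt
The window of Acta2 (minus strand, chr19:34255374-34255623) and that of the pericyte gene Rgs5 (plus strand, chr1:169655251-169655500) had no match to the box as searched.
Acta2: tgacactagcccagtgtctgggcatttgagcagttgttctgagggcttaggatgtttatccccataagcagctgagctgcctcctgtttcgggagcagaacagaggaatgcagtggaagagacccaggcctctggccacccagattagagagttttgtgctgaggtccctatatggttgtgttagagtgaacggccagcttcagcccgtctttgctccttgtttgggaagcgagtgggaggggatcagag
Rgs5: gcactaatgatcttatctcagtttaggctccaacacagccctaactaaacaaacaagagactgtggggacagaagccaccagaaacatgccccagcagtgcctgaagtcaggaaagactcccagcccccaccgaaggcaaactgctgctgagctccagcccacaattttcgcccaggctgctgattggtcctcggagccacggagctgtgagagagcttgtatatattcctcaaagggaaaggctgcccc

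Pericyte genes did not fall as a group in Myh11-high cells. Of 21 tested genes of a 26-gene pericyte list, 6 were higher and none lower, against 6.82% and 7.40% over all genes, with a median of 0.20, and the 6 were Colec11, Cox4i2, Cspg4, Higd1b, Mcam and Nrarp. Nrarp, a feedback regulator of Notch signalling, differed by 1.81 ± 0.72 (adjusted p = 0.00204), and Cspg4, the NG2 proteoglycan, by 0.79 ± 0.25 (adjusted p = 0.0275). With the fibroblast-led cells left out none of 20 was higher and the 2 potassium channel genes were lower, against 1.67% and 0.293%, and the median was -0.35. The fibroblast-led cells were set by low mural markers, among them Kcnj8, Abcc9, Higd1b, Mcam and Cspg4, and all were Myh11-low. Leaving them out therefore raises these genes in the Myh11-low class by construction, and these values are a description only.

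Kcnj8 was at 120, 287 and 169 CPM in Myh11-high cells. It was at 200, 299 and 371 CPM in all Myh11-low cells, a log2 difference of -0.63 ± 0.54 that did not pass (edgeR adjusted p = 0.0939), and at 454, 428 and 718 CPM in those that were not fibroblast-led, a difference of -1.52 ± 0.83. Abcc9 was at 334, 615 and 409 CPM in Myh11-high cells, at 290, 779 and 539 CPM in all Myh11-low cells and at 676, 1115 and 1062 CPM in those that were not fibroblast-led. Their differences were -0.18 ± 0.33 (adjusted p = 0.573) and -1.08 ± 0.26. Kcnj8 was also called lower in 4 other settings, namely no filter on low counts, cells thinned to 2000 UMIs, cells with an Rgs5 or Myh11 UMI and without the deepest cell of each library, but not in the remaining ones, among them DESeq2 and the stricter cell filter. Kcnj8 was thus lower in Myh11-high cells in all 3 libraries in both versions, and Abcc9 in 2 of 3 libraries with all cells and in all 3 without the fibroblast-led cells.

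Rgs5 itself was at 9005, 8268 and 7559 CPM in Myh11-high cells and at 6030, 7261 and 8085 CPM in Myh11-low cells that were not fibroblast-led, with overlapping classes. Rgs5 is a gene of the rule and most fibroblast-led cells lacked it, so its levels were fixed in part by the choice of cells and are read no further. Pdgfrb differed by -0.22 ± 0.24 (adjusted p = 0.449) and the pericyte transcription factor gene Ebf1 by -0.30 ± 0.05 (adjusted p = 0.229), although Ebf1 was called lower in cells with an Rgs5 or Myh11 UMI and without the fibroblast-led cells and the 2 cells low in mural markers. Steap4, a metalloreductase gene, and vitronectin (Vtn) also did not pass.

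Genes of vessel tone other than the potassium channel were shared or higher in Myh11-high cells. Of 23 tested vasoactive receptor and channel genes, 10 were higher and none lower, against 6.82% and 7.40% over all genes, with a median of 0.69. Without the fibroblast-led cells 2 were higher and 2 lower, against 1.67% and 0.293%, with a median of 0.19. Phosphodiesterase 3A (Pde3a), which degrades cyclic AMP, was at 255, 327 and 300 CPM against 59.7, 94.5 and 88.1 CPM (log2 difference 1.88 ± 0.18, adjusted p = 0.000147) and was one of the 2 that lasted, with Pln. The cation channel gene Trpc6 was at 36.8, 30.9 and 38.8 CPM against 2.30, 1.93 and 2.05 CPM (adjusted p = 0.000794). The guanylate cyclase subunit Gucy1a1 was higher by 0.80 ± 0.36 and Rgs16 by 1.57 ± 0.89. The endothelin receptor genes Ednra and Ednrb did not pass, with differences of 0.60 ± 0.34 and 0.15 ± 0.44.

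Some transcription factor and growth factor genes passed the test with all cells and few without the fibroblast-led cells. Of 20 tested factors 8 were higher, namely Foxc2, Foxf1, Klf2, Mef2c, Nr2f2, Nr4a1, Tbx2 and Yap1, against 6.82% over all genes, and none of 18 was higher without the fibroblast-led cells. Mef2c was at 328, 340 and 328 CPM against 115, 141 and 152 CPM (1.3 ± 0.20, adjusted p = 0.00121). Of 20 growth factor and receptor genes Angpt2, Ccn2 and Pdgfa were higher and Nrp1 lower, near the shares of 6.82% and 7.40% over all genes, while without the fibroblast-led cells Ccn2 was higher and none lower of 19. Ccn2, a matricellular target of Yap and serum response factor, was at 414, 111 and 504 CPM against 137, 131 and 180 CPM, so that the classes overlapped in old PBS. In the Notch list the 2 higher genes of 9 were Nrarp and Nrip2, while Heyl and Hes1 did not pass, and without the fibroblast-led cells Nrip2 was the 1 gene of 7 called.

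Basement membrane genes went in both directions. Of 20 tested, 8 were higher (Col18a1, Itga1, Itga7, Itga8, Itgb1, Lama5, Lamb2 and Sparcl1) and 8 lower (Col15a1, Hspg2, Lama2, Lama4, Lamb1, Nid1, Nid2 and Sparc), against 6.82% and 7.40% over all genes. Col18a1, the source of endostatin, was at 975, 477 and 994 CPM against 333, 147 and 258 CPM (1.73 ± 0.20, adjusted p = 6.14e-05), and the laminin chain gene Lama5 at 49.1, 44.2 and 77.6 CPM against 1.15, 11.6 and 10.2 CPM. These 2 were the only basement membrane genes called without the fibroblast-led cells, out of 19. The type IV collagen genes Col4a1 and Col4a2 did not pass, with differences of 0.12 ± 0.28 and 0.34 ± 0.10.

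Most interstitial matrix genes were lower in Myh11-high cells. Of 35 genes 28 were lower and 3, Ccn2, Eln and Thbs1, were higher, against 7.40% and 6.82% over all genes, with a median of -2.01. Col1a1 was at 1162, 279 and 539 CPM against 8395, 4062 and 6820 CPM, and Dcn at 6.13, 22.1 and 21.2 CPM against 1250, 925 and 1594 CPM. Dcn, Lum and Col14a1 are also on the fibroblast list that set the fibroblast-led cells. Without those cells 2 of 27 were lower (Dcn and Mgp), 2 were higher (Ccn2 and Eln) and the median was -0.02, against 0.293% and 1.67% over all genes. Without the 2 cells low in mural markers as well, 5 of 27 were lower, with Col1a1, Fbln2 and Mmp14 added, against 0.843%. Matrix Gla protein (Mgp), an inhibitor of calcification, was at 843, 407 and 1248 CPM in Myh11-high cells. In Myh11-low cells that were not fibroblast-led, with those 2 cells kept in, Mgp was at 4715, 1458 and 3564 CPM. Elastin (Eln), the elastic protein of arterial walls, was at 362, 128 and 187 CPM in Myh11-high cells against 24.4, 30.4 and 84.8 CPM in the same Myh11-low cells.

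Of the 12 genes with the largest fall, 8 had no UMI in any Myh11-high cell. They were Aldh1a2, which makes retinoic acid, Mfap4, Pdpn, Prg4, Angptl1, Svep1, Efemp1 and Msc. With a floor of 3 UMIs over the 3 libraries together, Aldh1a2 was at least 30.0-fold lower, Mfap4 at least 23.6-fold and Pdpn at least 22.1-fold. Without the fibroblast-led cells Aldh1a2 and Mfap4 had no UMI in the remaining Myh11-low cells of old PBS and old rMETRNL either. Mest, Smoc2, Dcn and Igfbp6 completed the set.

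**Figure D3:**
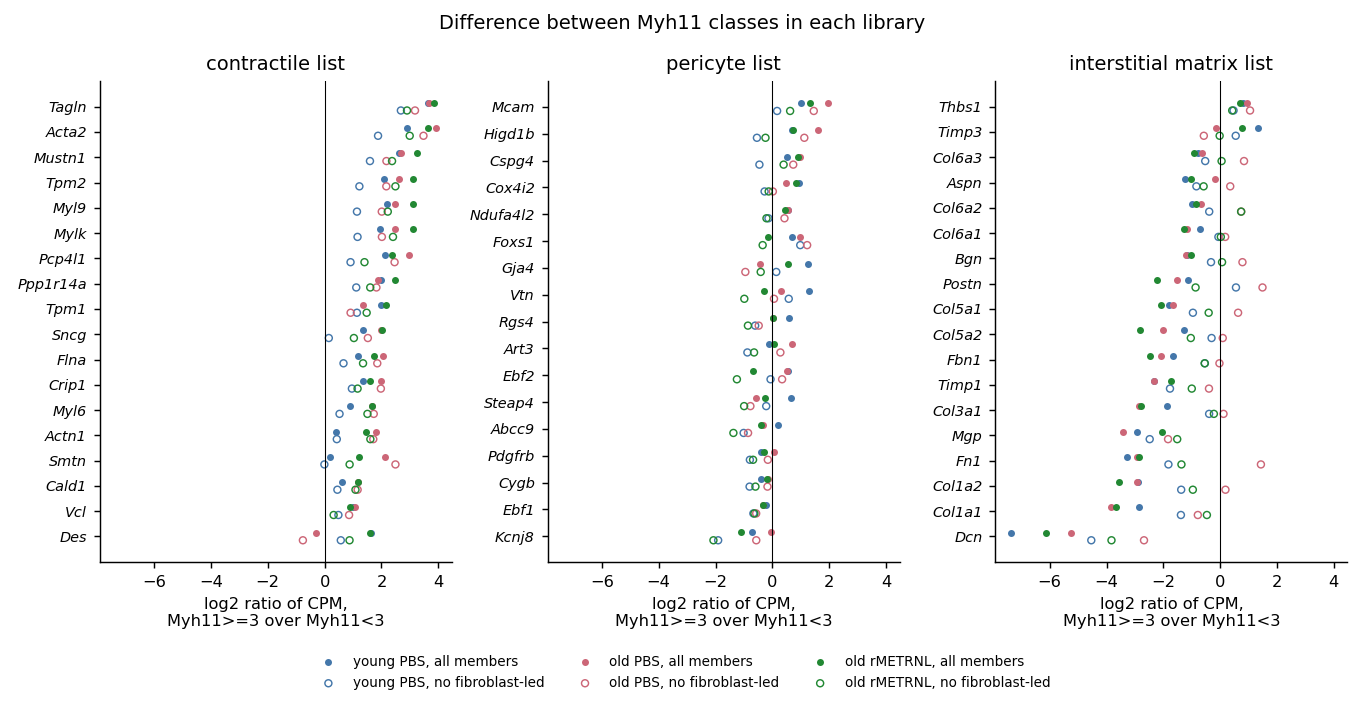
Log2 ratio of Myh11-high over Myh11-low cells within each library for the genes of the contractile, pericyte and interstitial matrix lists with the most UMIs, with filled points for all mural cells and open points without the fibroblast-led cells. Acta2 and Tagln lie above 0 in every library (means of 3.49 and 3.73 with all cells), Kcnj8 and Abcc9 move down to means of -1.52 and -1.08 when the fibroblast-led cells are left out, and Col1a1 moves from a mean of -3.45 to one of -0.88.

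Between libraries, levels of summed mural cells were compared as ratios with counting intervals, and a gene was counted when it had at least 50 UMIs in both libraries together, a change of at least 2-fold and an interval that left out 1. For age 346 of 5161 genes (6.70%) were counted, 169 higher and 177 lower in old PBS, with a median log2 ratio of 0.01. For treatment 146 of 4396 genes (3.32%) were counted, 71 higher and 75 lower in old rMETRNL, with a median of 0.02. In the 262 cells that were not fibroblast-led, 112 (2.95%) and 165 (4.34%) of 3803 genes were higher and lower for age, 7.28% in all. For treatment 79 (2.31%) and 74 (2.16%) of 3420 were, 4.47% in all. These are counts of genes past a fold in single libraries and not of tested changes.

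For several of the genes with the largest ratios 1 cell held most of the UMIs, and the ratios of some, but not of most, were lost without it. In the age contrast Tnnc2, Ckm, Acta1, Mylpf, Tnni2 and Myl1, which encode muscle fibre proteins, and Mt3 led the higher side, and the old PBS cell with 82.2% of the fibre marker UMIs held 85.0% of those of Acta1. Without each gene's richest cell in each library, Acta1 had 82 UMIs in old PBS and 10 in young PBS, a ratio of 13.3 (6.88 to 28.8), and Tnnc2 had 38 and 3, a ratio of 20.2 (6.41 to 102). The ratios of Mylpf, Ckm and Myl1 were then 12.8, 21.4 and 19.3. Tac1, a neuropeptide precursor gene, had 68.7% of its old PBS UMIs in 1 cell, and 36 UMIs against 0 in young PBS without it. On the lower side 99.2% of Ccl5 UMIs and 99.1% of Mmp13 UMIs of young PBS came from 1 cell each, and without it young PBS kept 1 UMI of Mmp13, against 2 for old PBS, and both kept 1 UMI of Ccl5. Others kept low ratios without their richest cells, with 0 UMIs of Cxcl3 in old PBS against 62 in young PBS, and ratios of 0.146 (0.0517 to 0.334) for Ecrg4, 0.160 (0.0620 to 0.347) for Nts and 0.176 (0.0818 to 0.339) for Fkbp11. In old rMETRNL, Spp1 was at 1234 CPM against 119 CPM in old PBS, but 94.9% of its UMIs came from 1 cell, and without the cell with most Spp1 in each library the ratio was 0.906 (0.597 to 1.38). Mest, an imprinted gene, was spread over more cells, at 572, 71.1 and 391 CPM, and without its top cells its ratio was 0.111 (0.0781 to 0.152) for age and 5.25 (3.73 to 7.55) for treatment. Without the fibroblast-led cells Mest was at 186, 20.4 and 45.2 CPM. The other genes that led the higher side for treatment kept their rise without their richest cells. Igfbp2 and Cxcl3 then had 26 and 31 UMIs in old rMETRNL, against 0 of each in old PBS. The treatment ratios of Serpina3f, Ptx3, Sfrp2 and Fkbp11 were 8.72, 8.25, 4.85 and 4.54, although that of Ptx3 reversed with a rule of at least 5 UMIs.

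Summed over all mural cells, interstitial matrix genes were lowest in old PBS. The 35 genes of the list summed to 42424, 24857 and 33790 CPM. In the age contrast 9 of 35 were lower and 1 higher, against 3.43% lower and 3.27% higher over all genes, with a median log2 ratio of -0.84. In the treatment contrast 5 of 34 were higher and none lower, against 1.62% higher over all genes, with a median of 0.46. Without the deepest cell of each library, which in old PBS is the cell of 79881 UMIs, 3 of 35 were lower for age (median -0.59) and 3 of 33 higher for treatment (median 0.240). In that setting 4.08% of all genes were higher and 3.51% lower for age, 7.59% in all, and 1.27% higher and 1.57% lower for treatment, 2.84% in all. The treatment median was also lower in cells with an Rgs5 or Myh11 UMI (0.225) and with a rule of at least 5 UMIs (0.280). The share of UMIs from fibroblast-led cells, 42.0%, 21% and 31.1%, was ordered in the same way. Within the fibroblast-led cells themselves the list was instead highest in old PBS and lowest in young PBS.

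Without the fibroblast-led cells the list was still lowest in old PBS. In the remaining 262 mural cells the list summed to 20886, 8527 and 14004 CPM, with 22 of 29 genes lower and 1 higher for age (median -1.45) and 6 of 25 higher and none lower for treatment (median 0.73), against 4.34% lower for age and 2.31% higher for treatment over all genes. Without the 2 cells low in mural markers as well, it summed to 20886, 9781 and 14289 CPM, with medians of -1.28 and 0.55. In Myh11-high cells alone, none of which was fibroblast-led, it summed to 15609, 8900 and 11960 CPM. Single cells carried part of the level, since the richest cell held 16.4%, 7.71% and 22.7% of the list's UMIs in the 262 cells. With that cell left out of each library the sums were 18656, 8160 and 11653 CPM. The median cell stood at 11435, 7818 and 9009 CPM, so that the order was the same and the gap smaller when each cell counted equally.

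Fibrillar collagens were among the genes lower in old PBS. Col1a1 was at 2155, 404 and 636 CPM in the 262 cells, a ratio of 0.188 (0.163 to 0.215) for age and 1.57 (1.33 to 1.86) for treatment. Col3a1, its partner in fibres, was at 2508, 687 and 1189 CPM, and its age and treatment ratios were 0.274 (0.245 to 0.305) and 1.73 (1.53 to 1.97). Without the richest matrix cell of each library Col1a1 was at 1689, 337 and 523 CPM, and Col3a1 at 2293, 587 and 1043 CPM. Without the 2 cells low in mural markers Col1a1 was at 2155, 464 and 633 CPM. Its age ratio was then 0.215 (0.187 to 0.247) and its treatment ratio 1.36 (1.15 to 1.62). Both collagens were thus several-fold lower in old PBS than in young PBS and between the 2 in old rMETRNL.

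Fibronectin (Fn1), a provisional matrix protein, was at 441, 78.2 and 454 CPM in the 262 cells, a treatment ratio of 5.80 (4.22 to 8.14). Without the richest matrix cell of each library it was at 346, 81.1 and 176 CPM, a ratio of 2.17 (1.5 to 3.18). Mgp was at 2897, 1054 and 2328 CPM and, without the richest cell, at 3060, 1091 and 1594 CPM. Biglycan (Bgn) was at 1589, 568 and 960 CPM and Ccn2 at 265, 81.6 and 314 CPM. Timp3, an inhibitor of metalloproteinases, was the gene counted as higher with age, at 395, 877 and 814 CPM in all mural cells and 585, 1060.5 and 1114 CPM in the 262.

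**Figure D4:**
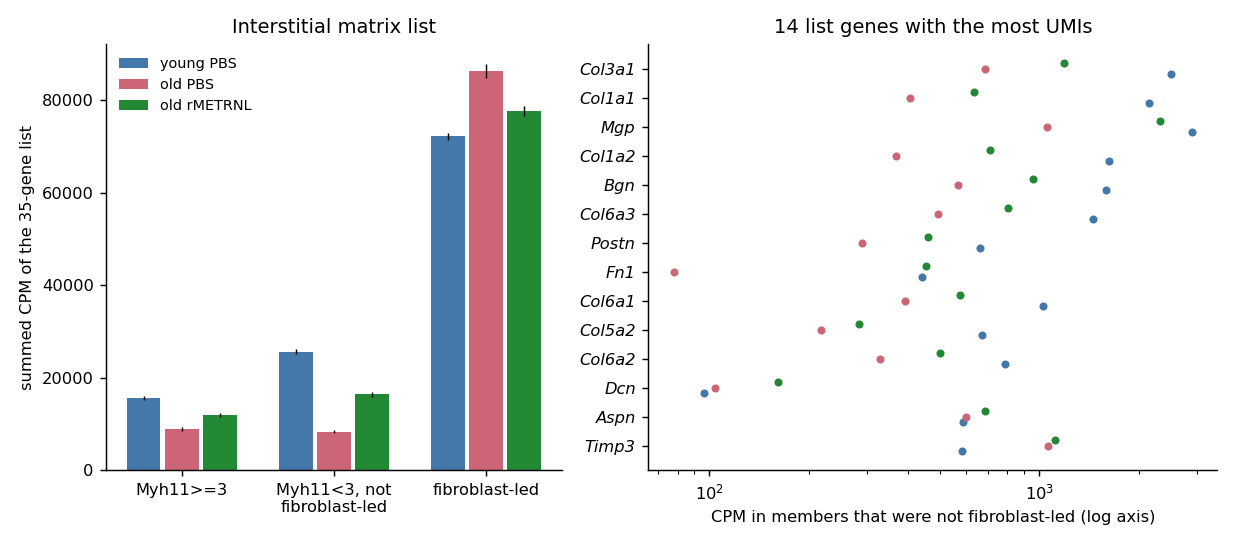
Summed CPM of the 35 interstitial matrix genes in Myh11-high cells, in Myh11-low cells that were not fibroblast-led and in fibroblast-led cells of each library, as bars with Poisson intervals, and beside it the CPM of 14 of the genes in the 262 cells that were not fibroblast-led, on a log axis. The list is lowest in old PBS in Myh11-high cells (8900 CPM) and in Myh11-low cells that were not fibroblast-led (8293 CPM). In fibroblast-led cells it is instead highest in old PBS (86252 CPM) and lowest in young PBS (72154 CPM).

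Few basement membrane genes were counted with all mural cells. Of 18 genes, 1 was higher and 2 lower for age, against 3.27% and 3.43% over all genes, with a median of -0.28, and 1 of 19 was higher for treatment, against 1.62%, with a median of 0.17. Col18a1 was at 508, 247 and 529 CPM, which was 0.486 times (0.410 to 0.574) the young level for age and 2.14 times (1.79 to 2.56) the old PBS level for treatment. Sparcl1, a matricellular gene of vessel walls, went the other way at 807, 1671 and 1615 CPM, and its age ratio was 2.07 (1.90 to 2.26), or 1.71 in the 262 cells. Without the fibroblast-led cells 5 of 17 were lower for age, against 4.34%, the median was -0.62, and Col4a1 was at 2652, 1326 and 1854 CPM.

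The contractile list did not move one way with age. Its sum was 15654, 17190 and 23828 CPM, and 22796, 20437 and 32223 CPM without the fibroblast-led cells. In the age contrast 5 of 26 genes were higher and 1 lower (median 0.34), against 3.27% and 3.43% over all genes. With those cells left out 1 was higher and 1 lower (median 0.01), near the 2.95% and 4.34% over all genes, and the median was 0.21 without the 2 cells low in mural markers as well. Myh11 was 1 of the 5, at 294, 685 and 927 CPM, but the rule had used it. Acta2 was at 3868, 2522 and 5608 CPM in the 262 cells, a ratio of 0.652 (0.612 to 0.695) for age and 2.22 (2.09 to 2.37) for treatment. Without those 2 cells the ratios were 0.755 (0.708 to 0.804) and 2.01 (1.89 to 2.14). These sums mix the Myh11 classes, and the Myh11-low cells among the 262 held 30.8%, 48.6% and 32.1% of the mural UMIs. Acta2 was at 1711, 514 and 1187 CPM in them and at 6303, 5739 and 9470 CPM in Myh11-high cells, where the age gap was smaller.

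With treatment 2 of 26 contractile genes were counted as higher and none lower (median 0.43), against 1.62% higher over all genes, and 5 of 26 without the fibroblast-led cells (median 0.58), against 2.31%. Myl9 was at 632, 630 and 1326 CPM, a treatment ratio of 2.11 (1.89 to 2.35). Cnn1 was at 28.4, 53.7 and 137 CPM, a ratio of 2.56 (1.76 to 3.78), of which 55.7% of the old rMETRNL UMIs came from 1 cell. That library's cell richest in contractile transcripts held 18% of the list's UMIs. Without the richest cell of each library the list summed to 15003, 15294 and 20240 CPM, Cnn1 was at 29.4, 37.1 and 63.1 CPM and Acta2 at 2223, 1635 and 2994 CPM. The median cell stood at 11960, 9443 and 10030 CPM, so that it too was higher in old rMETRNL than in old PBS, by less than the sum was.

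A few pericyte and vessel tone genes were higher in old PBS than in young PBS. In the pericyte list 3 of 23 genes were higher and none lower for age (median 0.22), against 3.27% and 3.43% over all genes, and 0 of 22 were counted for treatment (median -0.06), against 1.62% higher and 1.71% lower. In the vasoactive list 5 of 22 were higher and none lower for age (median 0.57), and 1 was higher and 1 lower of 22 for treatment (median -0.15), with the same shares over all genes. Abcc9 was at 302, 729 and 491 CPM, an age ratio of 2.41 (2.11 to 2.76), and Rgs4, a regulator of G protein signalling, at 160, 357 and 248 CPM (2.24, 1.85 to 2.71). Ptger4, a receptor for the dilator prostaglandin E2, was at 20.9, 63.1 and 40.2 CPM.

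Part of this shift moved with the fibroblast-led cells, which held little of these transcripts. Without them the age ratio was 1.79 (1.56 to 2.05) for Abcc9 and 1.67 (1.38 to 2.02) for Rgs4, and the medians of the pericyte and vasoactive lists were -0.03 and 0.31. Without the 2 cells low in mural markers as well, Abcc9 had an age ratio of 2.07 (1.81 to 2.37), and the medians were 0.18 and 0.52. With only the fibroblast-led cells left out, Kcnj8 was at 297, 374 and 425 CPM and the receptor gene Ednrb at 451, 631 and 614 CPM. Pln was counted as higher in both contrasts, at 25.1, 51.0 and 122 CPM, and Rgs16 as lower with treatment, at 172, 217 and 102 CPM (ratio 0.471, 0.355 to 0.620).

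Several interferon-stimulated genes were lower in old rMETRNL. Of 22 genes 2 were higher and 2 lower for age (median -0.21), against 3.27% and 3.43% over all genes, and 6 of 21 were lower and none higher for treatment (median -0.26), against 1.71% lower over all genes. Ifit1, which binds foreign RNA, was at 309, 737 and 172 CPM, a ratio of 2.38 (2.09 to 2.73) for age and 0.234 (0.192 to 0.283) for treatment. Ifit3 was at 195, 401 and 99.8 CPM and the GTPase gene Iigp1 at 759, 1490.1 and 547 CPM. Isg15, Rsad2 and Gbp2 were the others lower with treatment. Bst2, a tethering factor, and Gbp3 were lower with age, Bst2 at 693, 242 and 290 CPM.

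Without the fibroblast-led cells 5 of 21 of these genes were lower with treatment, against 2.16% over all genes, and Ifit1 was at 426, 812 and 241 CPM, Ifit3 at 232, 486 and 139 CPM, Iigp1 at 1011, 1565 and 610 CPM and Bst2 at 722, 255 and 295 CPM. Leaving out the cell richest in interferon-stimulated transcripts in each library gave Ifit1 at 305, 707 and 156 CPM. The sum of the list was 10966, 10067 and 7722 CPM, and its most abundant genes, Ifitm3 and B2m, were not counted with treatment, at 3826, 2473 and 2697 CPM and at 1579, 1357 and 1261 CPM.

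Few inflammatory genes were counted between libraries. Ccl2, the monocyte chemokine, was at 2062, 2109 and 2444 CPM and Cxcl1, a neutrophil chemokine, at 1399, 1631 and 1724 CPM. Of 22 genes 1 was lower for age, and 2 were higher and 1 lower for treatment, against 3.43%, 1.62% and 1.71% over all genes, with medians of 0.06 and 0.16. Cxcl10, a chemokine induced by interferon, was the one lower with treatment, at 1611, 2475 and 1085 CPM (0.438, 0.403 to 0.476). In the 262 cells the treatment ratio of Cxcl10 was 0.511. Ccl7 and Tnfaip3 were higher, but Ccl7 was at 229, 178 and 169 CPM without the fibroblast-led cells.

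Immediate early and heat shock genes had a higher sum in both old libraries, and few of them were counted. Their 23 genes summed to 18783, 28425 and 30509 CPM, with 3 higher and none lower for age (median 0.64), against 3.27% higher over all genes, and none counted for treatment (median 0.00). Egr1 was at 709, 1618 and 1185 CPM, an age ratio of 2.28 (2.09 to 2.49), and Atf3, a stress-induced factor, at 307, 679 and 657 CPM. Without the fibroblast-led cells 2 of 23 were higher for age, the median was 0.52, and Egr1 was at 663, 1579 and 1229 CPM and Atf3 at 400.5, 785 and 779 CPM. Macrophage markers moved in the same direction with age, since 3 of 8 (Cd74, C1qa and Tyrobp) were counted as higher, and their part in the result was not tested.

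**Figure D5:**
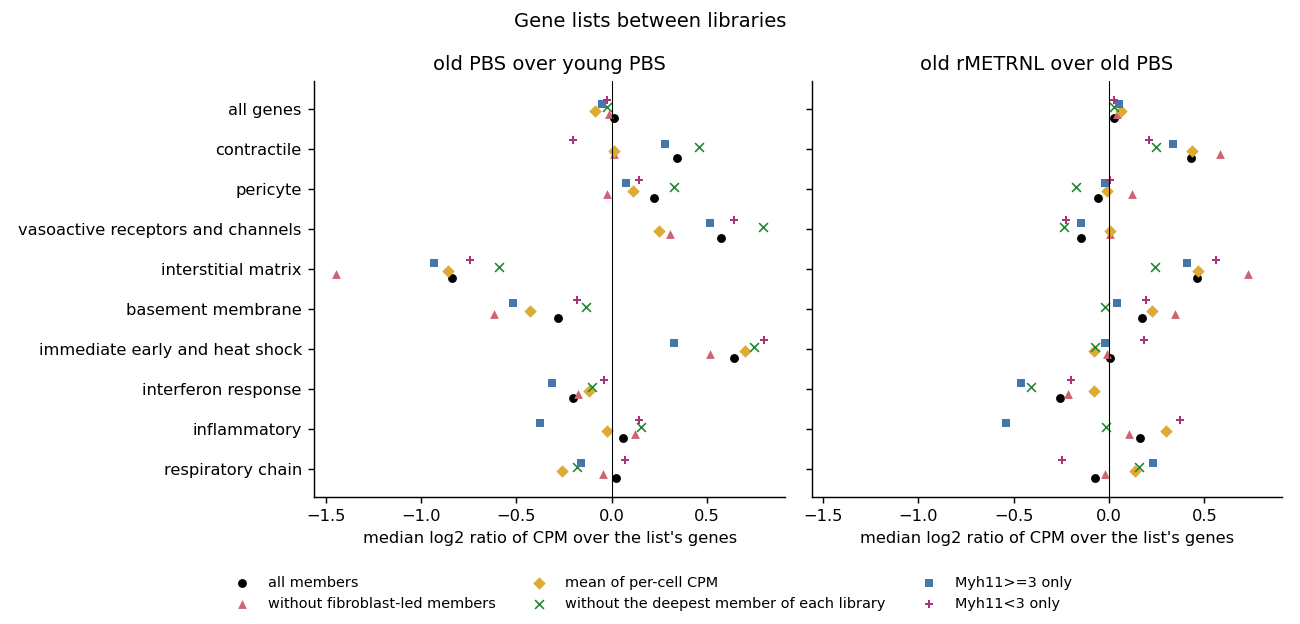
Median log2 ratio of 10 gene lists for age (old PBS over young PBS) and treatment (old rMETRNL over old PBS), with 1 marker for each of 6 settings, among them all mural cells, Myh11-high cells and cells that were not fibroblast-led. The interstitial matrix list lies below 0 for age and above 0 for treatment, with medians of -0.84 and 0.46 over all mural cells.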

How the data were processed

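The 3 single-cell libraries, 1 per group, were analysed from the gene-by-cell UMI counts that the authors deposited, 32285 features on mm10. The submitters' processing notes name Cell Ranger 5.0.0 and 3.1.0, without saying which step used which. The members and gene lists were chosen with earlier results of these data known. Cells needed at least 500 genes and under 10% mitochondrial UMIs. The Scrublet threshold called 0 or 1 doublet per library and had not worked, so the highest scores, 0.8% per 1000 barcodes, were taken as doublets and removed only as an alternative. Levels are CPM of summed counts. Mural cells with under 1500 CPM of mural markers were left out as an alternative, beside the fibroblast-led cells. Ratios between libraries carry conditional exact intervals. The Myh11 classes were compared on 6 sums with edgeR 4.0.16 (quasi-likelihood, library as block), with DESeq2 1.42.0 as an alternative. Log2 values within a library used a pseudocount of 0.5 counts. On simulated counts the edgeR step recovered 81.5% of 4-fold changes among 5423 genes, with 1 false call. The dispersion there was set to 0.1 for every gene and was not taken from the data. The counting rule between 2 libraries, on simulated Poisson counts at the old PBS depth, recovered 100% of 4-fold changes and made 29 false calls among 4331 genes. Those counts held no spread between cells, so they give no error rate for the real libraries. Genes were named by list membership with most UMIs or a call, by the 12 largest changes per direction of the split, the 8 largest per direction between libraries and the 15 largest ratios to other cells. Promoters came from RefSeq and loci from the GRCm38 annotation. Analyses used Python 3.11.15 and R 4.3.3. One gene that these rules named is not reported here, although the list counts include it.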

Additional observations from a re-analysis of the deposited data

How the results depend on the processing

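Each group was 1 library, so nothing here measures variation between mice, and low genes are limited by 744906 to 1197133 UMIs per library. No paired analysis was possible because each group was 1 library, although the Myh11 classes were compared within libraries, with library as a block. The cause of the shifts below was not tested. With a stricter cell filter the mural shares were 0.612%, 0.637% and 0.431% and the treatment ratio 0.677 (0.447 to 1.02), without doublet calls that ratio was 0.750 (0.558 to 1.005), and without fibroblast-led cells the young share was 0.684%. The Myh11-high share was 39.4% (young PBS) and 40.4% (old rMETRNL) at a cut of 2 UMIs and 18.2% (young PBS) at 5, and after thinning 10.3% and 12% (young and old PBS) at 3 UMIs and 37.3% and 40% (old PBS and old rMETRNL) at 1.

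For the Myh11 split the higher and lower counts were 190 and 178 by DESeq2, 68 and 46 after thinning, 180 and 232 with the stricter filter, 123 and 93 in cells with an Rgs5 or Myh11 UMI, 74 and 13 without fibroblast-led cells and 84 and 36 without those and 2 cells low in mural markers. The lower count was 644 without a filter on low counts and 242 without the library block, and leaving out 1 library gave 228 to 282 higher and 218 to 293 lower.

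Between libraries, the higher and lower counts for age and then treatment were 74 and 78, and 41 and 31, in Myh11-high cells, 368 and 324, and 187 and 205, with at least 20 UMIs, and 48 and 61, and 13 and 16, with at least 200. Without fibroblast-led cells 112 were higher with age. As means of per-cell CPM 368 were lower with age, and 162 higher and 128 lower with treatment. A rule of at least 5 UMIs gave 43 higher with treatment. The log2 treatment ratio of Spp1 reversed to -0.152 with that rule, -0.102 in cells with an Rgs5 or Myh11 UMI and -0.142 without the deepest cell, and that of Ptx3 to -0.311 with the rule of 5 UMIs.

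List medians for age were -0.403 (stricter filter) and -0.206 (Myh11-low) for contractile genes, 0.305 (no fibroblast-led cells) and 0.245 (per-cell) for vasoactive genes, -0.934 (Myh11-high) -1.45 (no fibroblast-led cells) and -1.28 (nor cells low in mural markers) for interstitial matrix, -0.616 (no fibroblast-led cells) for basement membrane, and 0.881 (stricter) and 0.328 (Myh11-high) for immediate early genes. For the cell cycle list they were -0.921 (5 UMIs), 0.612 (stricter), -0.688 (Myh11-high), -0.914 (Rgs5 or Myh11), -0.725 (no deepest cell), -0.812 (no fibroblast-led or low cells) and -0.522 (per-cell). For treatment they were 0.579 for contractile and 0.118 for pericyte genes (no fibroblast-led cells), -0.172 for pericyte genes (no deepest cell), and 0.280 (5 UMIs), 0.225 (Rgs5 or Myh11), 0.730 (no fibroblast-led cells) and 0.240 (no deepest cell) for interstitial matrix. The cell cycle list gave -0.231 (5 UMIs), -1.75 (no doublet calls), -0.0594 (Myh11-high), -2.57 (Myh11-low), -0.0473 (Rgs5 or Myh11), -0.142 (no deepest cell), -0.0695 (no fibroblast-led or low cells), -0.355 (per-cell) and -0.138 (at least 200 UMIs).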

Other observations

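Some smooth muscle genes had too few UMIs for the test and were chosen after their values were seen. Myocd, the coactivator of serum response factor in smooth muscle, had 26 UMIs in Myh11-high and 1 in Myh11-low cells of all libraries together. P2rx1, an ATP-gated channel gene, had 21 and 0, Hey2, a Notch target gene, 23 and 4, and Kcnma1, the large-conductance potassium channel gene, 19 and 3.

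Cell cycle genes were counted as lower with treatment for 8 of 13 genes, against 1.71% over all genes, with a median log2 ratio of -1.42. The deepest old PBS mural cell, of 79881 UMIs, held 46.2% of that library's cell cycle UMIs, and without the deepest cell of each library 3 of 9 were lower, against 1.57% over all genes, and the median was -0.142. Respiratory chain genes moved little, with medians of 0.02 for age and -0.08 for treatment over 24 genes, and glycolysis and hypoxia genes had 0 of 20 counted for age and 0 of 18 for treatment.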
